A study of Mus musculus with 8 samples.

Results

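Kruppel-like factors are transcription factors that bind GC-rich and CACCC sequences through zinc fingers at their C terminus, while their N termini recruit co-activators or co-repressors. Some members are immediate early genes, whose transcripts appear soon after a stimulus without new protein synthesis. In skin, the family is known for its roles in the epidermal barrier, in the proliferating basal layer, in vessel walls and in the response to glucocorticoids. Described here are 10 members: the immediate early genes Klf2, Klf4, Klf6 and Klf10, and the other members Klf3, Klf5, Klf7, Klf9, Klf11 and Klf13. They are 10 of the 16 Klf genes in the deposited table, which holds 18770 genes. Besides their names, these 10 were selected on their measured levels in these same AP and VC libraries, so their values are a description and no p-value is given for them.

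Messenger RNA was sequenced from the dorsal skin of male wildtype C57BL/6J mice, 7 to 8 weeks old, after interfollicular epidermis had been taken off, which left dermis with hair follicles. Alpinetin is a plant flavonoid. AP mice (n = 4) received 20 µl of alpinetin at 3 mg/ml in 65% ethanol on depilated skin, and VC mice (n = 4) received 20 µl of 65% ethanol alone. The first dose followed depilation by 24 h, dosing was once daily, and skin was taken at D4, the question being which transcripts differ with alpinetin early in the hair cycle. The libraries, from separate mice, are numbered VC.1 to VC.4 in one group and AP.1 to AP.4 in the other; values are listed in that order, and no column of the table was tied to a given mouse.

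The groups differed as libraries before any Klf gene was considered. Between 6454563 and 7264151 reads per library fell on genes in the VC group, and between 8507783 and 11190113 in the AP group. The 13 mitochondrially encoded genes took 54.3%, 44.9%, 42.1% and 52.3% of the reads in the VC libraries, and 11.1%, 7.85%, 5.32% and 10.3% in the AP libraries. Values are normalized counts, that is reads divided by a size factor for each library, and 3 reads corresponded to 4.10 to 5.63 normalized counts in the VC libraries and to 1.49 to 2.18 in the AP libraries. Fold changes are AP over VC on the scale of log2(normalized count + 1), with the standard error (SE) from limma. A gene was called at a Benjamini-Hochberg adjusted p under 0.05 over the 15964 genes that reached 3 normalized counts in 4 or more of the 8 libraries, a filter that all 10 members passed. Depth and the mitochondrial share moved with treatment, and their part in the differences below was not tested.

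The mean of each of the 10 members was higher in the AP group under every scaling tried, with log2 fold changes from 0.32 (Klf10) to 1.43 (Klf7) and a median of 0.84. In the limma fit, 5 members were called higher (Klf3, Klf4, Klf6, Klf7 and Klf13) and 0 were called lower, beside 6.33% of all genes tested that were called higher and 4.0% that were called lower. None of the 10 was below 0 in the fit, so the number lower at an unadjusted p under 0.05 was also 0, as was the number called lower by edgeR, DESeq2 and voom. In 6 members every AP library lay above every VC library, beside 10.3% of all genes tested. Because the members were chosen with this contrast known, nothing is read from these counts. Over all genes tested the median log2 fold change was 0.06, and 8537 of them lay above 0. The 4 immediate early members had a median of 0.84, with 2 called, and the 6 other members a median of 0.86, with 3 called; the difference between these subsets was not tested. Summed normalized counts of the 10 members were 3684, 3418, 3808 and 3990 in the VC libraries, and 6520, 6318, 7348 and 7768 in the AP libraries. From bulk tissue, more cells of a type that expresses a gene and more transcript per cell cannot be told apart.

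**Figure D1:**
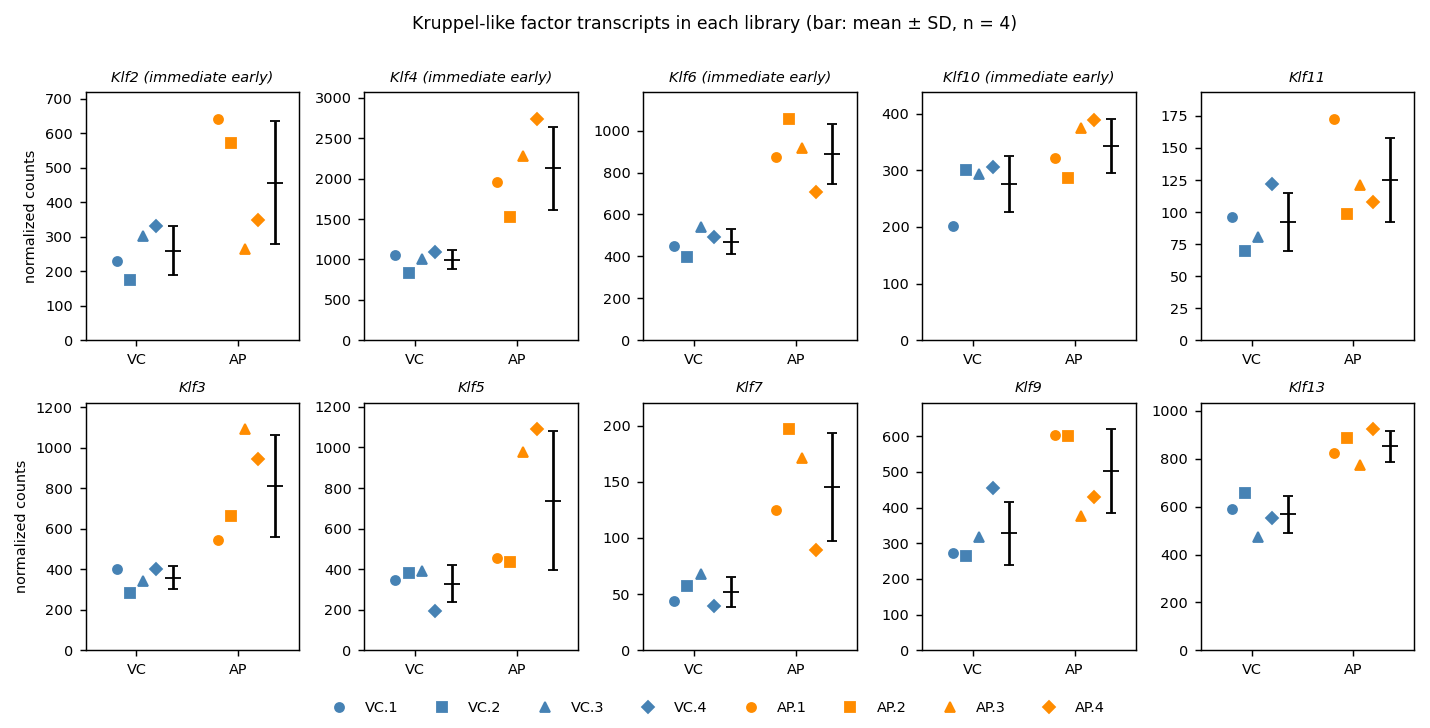
Normalized counts (vertical axes, each from 0 and on its own scale) of the 10 Kruppel-like factor genes in the 4 VC and 4 AP libraries; each symbol is 1 library and the bar is the mean ± SD. Klf4 and Klf6 show no overlap between groups, whereas Klf2 reaches 642 and 573 in AP.1 and AP.2 but 266 and 349 in AP.3 and AP.4.

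Among the immediate early members, Klf4, a factor of suprabasal keratinocytes needed for the epidermal barrier, had 1051, 829, 1000 and 1097 normalized counts in the VC and 1960, 1526, 2283 and 2739 in the AP libraries. All 4 AP libraries lay above the highest VC library, with AP.4 highest and AP.2 lowest among them. The means were 994 ± 117 and 2127 ± 512 (SD, n = 4 each), with a log2 fold change of 1.07 (SE 0.19). Klf4 (ENSMUSG00000003032) is encoded on the minus strand at chr4:55527143-55532466 in GRCm38. Klf6, widely expressed and induced by tissue injury, had 451, 398, 539 and 491 normalized counts in the VC and 875, 1056, 916 and 707 in the AP libraries. Its groups did not overlap either, and here AP.2 was the highest library and AP.4 the lowest of the AP group, whereas for Klf4 they were the lowest and the highest. Its means were 470 ± 60.2 and 889 ± 144 (SD, n = 4 each), with a log2 fold change of 0.91 (SE 0.17), and the gene (ENSMUSG00000000078) lies at chr13:5861482-5870394 on the plus strand. Both were called each time 1 of the 8 libraries was left out, and with every other setting tried. Because both genes were selected with this contrast known, nothing is read from these repeated calls.

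Klf2, which maintains quiescence of the vascular endothelium and is induced by blood flow, had 229, 176, 302 and 332 normalized counts in the VC and 642, 573, 266 and 349 in the AP libraries. AP.1 and AP.2 stood above every VC library, AP.4 just above the highest of them, and AP.3 fell within the VC range, so the groups overlapped. The means were 260 ± 70.6 and 458 ± 179 (SD, n = 4 each), and the log2 fold change of 0.77 (SE 0.30) was not called. Klf2 (ENSMUSG00000055148) lies at chr8:72319033-72321656 on the plus strand. Klf10, known for its early induction by TGF-beta, had 202, 300.0, 294 and 306 normalized counts in the VC and 321, 286, 375 and 389 in the AP libraries. VC.1 was low against its own group, AP.2 lay inside the VC range, and the groups overlapped. With means of 275 ± 49.2 and 343 ± 47.7 (SD, n = 4 each), its log2 fold change of 0.32 (SE 0.19) was the smallest of the 10 in the main fit, became 0.18 without VC.1, and was not called. Klf11 was lower than Klf10 without VC.2 (0.31 against 0.37) and without AP.1 (0.27 against 0.35). Klf13 was lower when a trend on transcript length was removed (0.23 against 0.30). Klf10 (ENSMUSG00000037465) lies at chr15:38291463-38300706 on the minus strand.

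Of the other members, Klf7, known from the outgrowth of axons, had the largest fold change and, in the VC group, the lowest level, with 43.7, 57.6, 68.3 and 39.4 normalized counts in the VC and 125, 197, 171 and 89.4 in the AP libraries. The groups did not overlap, and AP.4 was nearest to the VC range. Means were 52.2 ± 13.2 and 145 ± 47.8 (SD, n = 4 each), with a log2 fold change of 1.43 (SE 0.31), resting on 21 to 50 reads per VC library. Its first place was lost when a trend on transcript length was removed (1.01, against 1.05 for Klf4 and 1.03 for Klf5). It was also lost without AP.2 (1.265, against 1.304 for Klf5). Klf7 (ENSMUSG00000025959) lies at chr1:64029447-64122282 on the minus strand, and 3196 of its 8131 exonic bases are shared with an antisense RNA, Gm26649. The strandedness of the counting is not given in the sources used here, and Gm26649 has no row in the deposited table. Whether reads over the shared bases were counted for Klf7 or left out cannot be told. Klf3, a repressor that recruits CtBP, had 402, 284, 341 and 403 normalized counts in the VC and 543, 663, 1091 and 944 in the AP libraries. Here AP.3 and AP.4 were highest, and no AP library reached down to the VC range. Its means were 358 ± 57.1 and 810 ± 252 (SD, n = 4 each), with a log2 fold change of 1.14 (SE 0.23). Klf3 (ENSMUSG00000029178) lies at chr5:64803388-64832901 on the plus strand, with 404 of its 11243 exonic bases shared with the antisense RNA Gm20033.

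Klf13, which binds Sin3a and was described as an activator of Ccl5 in T cells, had 589, 658, 474 and 551 normalized counts in the VC and 823, 885, 774 and 923 in the AP libraries. It was the least variable of the called members within the AP group, and its groups did not overlap. Means were 568 ± 76.7 and 851 ± 65.9 (SD, n = 4 each), with a log2 fold change of 0.59 (SE 0.15), at chr7:63886351-63938915 on the minus strand (ENSMUSG00000052040). Klf5, a factor of proliferating basal epithelium, had 346, 383, 392 and 195 normalized counts in the VC and 454, 434, 976 and 1090 in the AP libraries. AP.3 and AP.4 were far above the rest, while AP.1 and AP.2 were only just above the highest VC library and VC.4 was low. The means were 329 ± 91.4 and 738 ± 343 (SD, n = 4 each), and the log2 fold change of 1.09 (SE 0.33), close to that of Klf4, was not called although the groups did not overlap. Klf5 (ENSMUSG00000005148) lies at chr14:99298691-99315036 on the plus strand.

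Klf9, induced by glucocorticoids and by thyroid hormone, had 273, 265, 318 and 454 normalized counts in the VC and 603, 600, 375 and 429 in the AP libraries. VC.4 lay above AP.3 and AP.4, so the groups overlapped. With means of 327 ± 87.5 and 502 ± 117 (SD, n = 4 each), its log2 fold change of 0.62 (SE 0.22) was not called; the gene (ENSMUSG00000033863) lies at chr19:23141226-23168134 on the plus strand. Klf11, a TGF-beta-inducible repressor that binds Sin3a, had 96.4, 69.5, 80.6 and 122 normalized counts in the VC and 173, 98.7, 121 and 108 in the AP libraries. Only AP.1 stood clear of the VC group. Its log2 fold change was 0.44 (SE 0.26) on means of 92.1 ± 22.7 and 125 ± 33.0 (SD, n = 4 each), became 0.27 without AP.1, and was not called; the gene (ENSMUSG00000020653) lies at chr12:24651274-24662789 on the plus strand.

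The number of called members depended on single AP libraries. Without AP.3, 2 members were called (Klf4 and Klf6); without AP.2, 3 were called (Klf3, Klf4 and Klf6); and without AP.4, 3 were called (Klf4, Klf6 and Klf7). Calls over all genes fell in the same fits, from 1011 higher to 209 without AP.3, 398 without AP.2 and 254 without AP.4. Klf13 was called for 2 of the 8 libraries when each was omitted in turn, being lost without VC.1, VC.3, VC.4, AP.2, AP.3 or AP.4, where its log2 fold change lay between 0.51 and 0.63. It was also lost, at a log2 fold change of 0.23, when a trend on transcript length was removed from each library. Without the intensity trend Klf3 and Klf13 were not called, at unchanged fold changes. Klf5 was called without AP.1 (log2 fold change 1.28) and by edgeR and DESeq2 on the recovered reads, and Klf9 was called without VC.4 (0.79). Scaling by total reads shifted the median over all genes upward by 0.84 (log2) and called all 10 members higher, beside 8657 of the 15964 genes tested; relative to that median the 10 members lay from 0.29 (Klf10) to 1.39 (Klf7), against 0.27 to 1.37 in the same order under the deposited scaling. Every member stayed above 0, and above the median of all genes, under each scaling and each left-out library. As the members were chosen with this contrast known, nothing is read from that.

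Per kilobase of exon, which allows levels to be compared between genes, the order in the VC group was led by Klf4 at 326 ± 38.4 normalized counts per kb (SD, n = 4). Klf2 at 141 ± 38.2 and Klf6 at 107 ± 13.7 followed and did not differ beyond their spread. Klf13 (75.4 ± 10.2), Klf9 (68.0 ± 18.2), Klf10 (65.9 ± 11.8) and Klf5 (63.2 ± 17.6) formed a middle group within each other's spread. Klf3 (31.8 ± 5.07), Klf11 (21.2 ± 5.24) and Klf7 (6.42 ± 1.63) were lowest. In the AP group the first places were the same, Klf4 at 698 ± 168, Klf2 at 248 ± 96.7 and Klf6 at 202 ± 32.7 normalized counts per kb. Klf5, at 142 ± 66.0, came next, ahead of Klf13 (113 ± 8.75) and Klf9 (104 ± 24.4) but within its own spread of both. Klf10 (82.0 ± 11.4), Klf3 (72.0 ± 22.4), Klf11 (28.8 ± 7.60) and Klf7 (17.9 ± 5.88) completed the order. Length here is that of all exons joined, 11243 bases for Klf3 against 5221 for its longest transcript, so levels of genes with many alternative exons are low on this scale.

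The AP libraries did not share 1 order across members. Klf2 and Klf9 were high in AP.1 and AP.2 and low in AP.3 and AP.4, whereas Klf3, Klf4, Klf5 and Klf10 had their highest levels in AP.3 and AP.4. Klf6 and Klf7 were highest in AP.2 and lowest in AP.4. After the group mean was subtracted on the log2 scale, Klf4 and Klf6 ran opposite to each other over the 4 AP libraries (Pearson r -0.91), as did Klf2 and Klf10 (-0.83). Over all 8 libraries r was weaker, at -0.46 for Klf4 and Klf6 and -0.29 for Klf2 and Klf10. Other pairs ran together over the AP libraries, such as Klf2 and Klf9 (0.99), Klf4 and Klf10 (0.98) and Klf6 and Klf7 (0.96). Klf2 and Klf3 ran opposite there (-0.99). Over all 8 libraries these pairs had r of 0.91, 0.40, 0.67 and -0.54, in that order. An r over 4 libraries is poorly determined, and these pairs were picked from all pairs of members. The planned ranking of genes by likeness to the mean of the 4 immediate early members was run but is not described, because that mean joins members that did not share 1 order.

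Marker genes of cell types differed between the groups and among the AP libraries. The most abundant gene of a list is the one with the highest mean over all 8 libraries. All 12 suprabasal keratinocyte markers were higher in AP, with 10 called and a median log2 fold change of 2.96. Their summed normalized counts were 5965, 12735, 8724 and 5610 in the VC libraries and 43699, 41677, 122002 and 172043 in the AP libraries. Krt10, a keratin of differentiating epidermis and the most abundant of them, averaged 2376 ± 1207 in VC and 38536 ± 27357 in AP (SD, n = 4 each; log2 fold change 3.85, SE 0.50, limma adjusted p = 0.00367, higher in 4 of 4 AP libraries). Krt77 (log2 fold change 3.95), Krt1 (3.46) and Dsc1 (3.28) were the other called genes with the largest change. None of these markers was at 0 in any library, although interfollicular epidermis had been taken off. Which cells these transcripts came from was not tested. AP.3 and AP.4, which led for the suprabasal sum, were also the AP libraries with the highest Klf3, Klf4, Klf5 and Klf10, whereas in the VC group VC.2, which led for that sum, had the lowest Klf3 and Klf4 but not the lowest Klf5 or Klf10. With each group's mean subtracted, r over the 8 libraries between a member and the mean log2 level of these markers was 0.92 for Klf5, 0.66 for Klf4, 0.62 for Klf10 and 0.56 for Klf3, down to -0.82 for Klf2. With basal keratinocyte markers r was 0.87 for Klf5, 0.54 for Klf10, 0.19 for Klf4 and 0.14 for Klf3. Some members had a stronger r of the opposite sign with other lists, such as Klf4 with red blood cell markers (-0.82) and Klf10 with adipocyte markers (-0.88). Of 8 basal keratinocyte markers 4 were called higher (median 1.07: Itga6, Col17a1, Dst and Itgb4), with sums of 25502, 80490, 49017 and 23083 in the VC libraries and 53441, 55611, 99917 and 144305 in the AP libraries. Krt14 was the most abundant of these (log2 fold change 1.02, limma adjusted p = 0.212), and 2 basal markers were called without VC.1, VC.4, AP.3 or AP.4 in turn.

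Of 8 endothelial markers, 2 were called higher, with a median log2 fold change of 1.31 and sums of 1519, 1558, 2299 and 2394 in the VC libraries and 3600, 7716, 2779 and 3349 in the AP libraries. Pecam1, an adhesion molecule of endothelial junctions, had a log2 fold change of 1.44 (limma adjusted p = 0.0198) and Cdh5, the cadherin of these junctions, one of 1.75 (limma adjusted p = 0.0386), both higher in 4 of 4 AP libraries. Vwf was the most abundant (1.23, limma adjusted p = 0.0653), although in the AP group Pecam1 was level with it (1214 and 1203), and no endothelial marker was at 0 in a library. Egfl7 was the 1 endothelial marker with a log2 fold change below 0 (-0.40, limma adjusted p = 0.291). AP.1 and AP.2, with the highest endothelial sums, were also the libraries with the highest Klf2 and Klf9, and within the AP group they led for other sums too (fibroblast markers 250038, 186766, 134799 and 95833; glucocorticoid-responsive genes 10050, 8505, 5947 and 7046). Cdh5 was called for 3 of the 8 libraries omitted in turn, with adjusted p from 0.00151 to 0.0949 over the alternatives, and without VC.1, VC.2, AP.2, AP.3 or AP.4 only Pecam1 was called among these markers, whereas 3 were called without VC.3, 4 without VC.4 and 5 by DESeq2. The part of keratinocyte, endothelial and fibroblast content in the Klf values was not tested.

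Other cell type lists had few calls. None of the 7 fibroblast markers (median log2 fold change 0.41; Col1a1 most abundant, 0.63, limma adjusted p = 0.428, but Col3a1 higher in the VC group, 37553 against 36683) and none of the 7 adipocyte markers (median 0.23; Cfd most abundant, 0.43, adjusted p = 0.546) was called by limma, edgeR or DESeq2, with 1 of each higher at an unadjusted p under 0.05 and none at 0 in a library. Skeletal muscle markers had a median of -1.74 with 0 of 7 called by limma, edgeR or DESeq2 and 5 lower at an unadjusted p under 0.05 (Acta1 most abundant, -1.92, limma adjusted p = 0.0628); AP.1, with a sum of 66998 against 4947 to 10727 in the other AP libraries, stood apart, and without it 7 of 7 were called lower. Leukocyte markers had 1 of 7 called higher (Cd207, of Langerhans cells, log2 fold change 1.72, limma adjusted p = 0.0224, higher in 4 of 4 AP libraries; 0 called higher without AP.3 or AP.4 or by voom) and a median of -0.50, with 3 lower at an unadjusted p under 0.05 and 2 called lower by DESeq2, with Lyz2 most abundant (-1.08, adjusted p = 0.0786). Of red blood cell markers 1 of 5 tested was called (Hbb-bs, also the most abundant, 1.24, limma adjusted p = 0.0231; median 0.94), and 0 without VC.1, AP.2 or AP.4. In the VC group Hba-a1 was above Hbb-bs (314 and 213), and Hba-a2, at -0.81, was the 1 marker lower at an unadjusted p under 0.05 (limma adjusted p = 0.0901; 1 marker called lower by DESeq2). None of 8 genes listed as hair matrix and shaft markers was called in the main limma fit. The list also holds Krt71 and Krt25, which are keratins of the inner root sheath. Its median was -0.30, with 3 genes above 0 (Krt71, Krt25 and Foxn1) and 5 below 0. At an unadjusted p under 0.05, 2 were higher, and 1 was called by edgeR and by DESeq2. Krt71 was the most abundant (2.01, limma adjusted p = 0.0575) but below Krt25 and Krt35 in the VC group (794 against 1170 and 935). With 1 library left out, up to 1 of these markers was called higher (Krt71 without AP.1) and up to 1 lower.

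No further Klf gene was called in the main limma fit. Of 7 further Klf genes, Klf17 had no row, Klf1 and Klf14 did not pass the filter, and 0 of the 4 tested were called by this fit or by edgeR, with a median log2 fold change of 0.38, while 1 was called by DESeq2 and 1 was higher at an unadjusted p under 0.05. Klf8, a repressor that recruits CtBP, had 5.46, 7.39, 5.46 and 5.63 normalized counts in the VC and 15.2, 19.4, 18.4 and 19.3 in the AP libraries. The groups did not overlap, but the VC values rest on 3 to 5 reads per library. Its log2 fold change was 1.45 (SE 0.45, limma adjusted p = 0.0597, higher in 4 of 4 AP libraries, with adjusted p from 0.00268 to 0.171 over the alternatives), and it was called with a pseudocount of 5, without the intensity trend, by DESeq2 and with total-read scaling. Klf15, a glucocorticoid-induced regulator of gluconeogenesis, had 175, 105, 171 and 206 normalized counts in the VC and 253, 287, 75.7 and 115 in the AP libraries. Like Klf2 and Klf9 it was high in AP.1 and AP.2 and low in AP.3 and AP.4, and the group difference was -0.00 (SE 0.40, limma adjusted p = 0.995). Klf12 (0.58, adjusted p = 0.566) and Klf16 (0.19, adjusted p = 0.543) were not called in the main fit either; Klf12 ranged from 0.14 without VC.4 to 0.90 without VC.1, and Klf16 was 0.10 without AP.4.

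**Figure D2:**
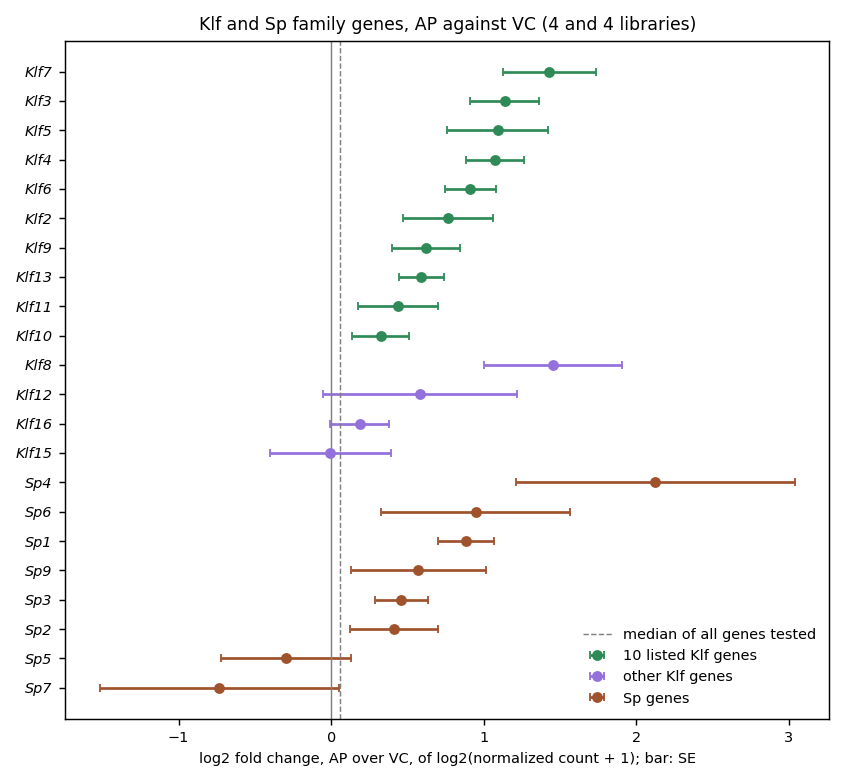
Log2 fold change of AP over VC on the log2(normalized count + 1) scale (horizontal axis) for the 10 listed Klf genes, the 4 other Klf genes tested and the 8 Sp genes tested; points are limma estimates from 4 and 4 libraries and bars are 1 SE. The 10 listed genes were chosen with this contrast known, so nothing is read from their place against the other genes. They lie between 0.32 and 1.43, to the right of the dashed median of all genes at 0.06. Klf15, Sp5 and Sp7 lie left of 0 (all 3 lie above 0 when scaled by total reads).

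The Sp family, which binds the same GC boxes and shares the zinc finger domain, had 8 of 9 genes tested, 1 of them called higher, and a median log2 fold change of 0.52. Sp1, a general activator at GC boxes, had 373, 365, 302 and 261 normalized counts in the VC and 477, 556, 725 and 649 in the AP libraries. Its groups did not overlap, and AP.3 was highest. The log2 fold change was 0.88 (SE 0.18, limma adjusted p = 0.0179), with adjusted p from 4.66e-04 to 0.129 over the alternatives, and the call was lost without AP.3, without AP.4, without the intensity trend and when the trend on transcript length was removed (log2 fold change 0.46). Sp3 (0.46, limma adjusted p = 0.106) did not overlap between groups but was not called. Sp4 ranged from 0 to 42.3 normalized counts in VC, and its fold change of 2.13 (SE 0.91, limma adjusted p = 0.143) became 1.10 without VC.1, the library at 0. Sp2 (0.41, adjusted p = 0.362), Sp6 (0.95, adjusted p = 0.328), Sp9 (0.57, adjusted p = 0.407), Sp5 (-0.29, adjusted p = 0.675) and Sp7 (-0.73, adjusted p = 0.558) were not called by limma, and Sp8 did not pass the filter. Single libraries moved these values: Sp2 became 0.17 without VC.1, Sp6 0.23 without VC.4, Sp9 0.20 without VC.2, Sp5 -0.04 and Sp7 -0.23 without VC.4. With total-read scaling Sp5 and Sp7 were above 0.

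Immediate early genes outside the family were listed for comparison with Klf2, Klf4, Klf6 and Klf10. Of 23 tested, 13 were called higher and 0 lower by limma, with the same counts by edgeR and DESeq2, 0 lower at an unadjusted p under 0.05, and a median log2 fold change of 0.99. Fos, part of the AP-1 factor, had 287, 269, 468 and 317 normalized counts in the VC and 2384, 1615, 2090 and 1728 in the AP libraries. The log2 fold change of Fos was 2.56 (SE 0.20, limma adjusted p = 6.34e-04), more than that of any Klf member, and the AP libraries were far above the VC range. Fosb (3.29, limma adjusted p = 0.00231), the phosphatase gene Dusp1 (2.12, adjusted p = 0.00435) and the zinc finger gene Egr1 (1.86, adjusted p = 0.00297) were also higher in 4 of 4 AP libraries. Jund, the most abundant of the list, was at -0.09 (limma adjusted p = 0.819), a sign that depended on the scaling. Between 9 and 14 genes of the list were called when 1 library was left out. Whether these genes and the Klf members moved for the same reason was not tested.

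Genes that act with or upstream of the family were mostly not called. Of 13 upstream regulators, 1 was called (median log2 fold change 0.14): Mef2a, an activator of Klf2 transcription, had 357, 284, 352 and 358 normalized counts in the VC and 475, 516, 629 and 640 in the AP libraries, with a log2 fold change of 0.74 (limma adjusted p = 0.0215) that was not called without AP.3 or AP.4, without the intensity trend, or with the length trend removed (0.45). Nr3c1, the glucocorticoid receptor and the most abundant of these, was at 0.35 (limma adjusted p = 0.102). The 2 regulators lower at an unadjusted p under 0.05 were Elk4 (-0.51) and Wwp1 (-0.49). Up to 1 regulator was called lower when 1 library was left out. Of 9 cofactors, 2 were called (median -0.15): the acetyltransferase Ep300 (1.07, limma adjusted p = 0.0198) and the co-repressor scaffold Sin3a (0.83, adjusted p = 0.0433), each higher in 4 of 4 AP libraries. Ep300 was not called without AP.2, AP.3 or AP.4, Sin3a was called for 2 of the 8 libraries omitted in turn, and neither was called without the intensity trend or once the trend on transcript length was removed. Ctbp1, which Klf3 and Klf8 recruit and the most abundant cofactor, was at -0.42 (limma adjusted p = 0.0582), with all 4 AP libraries below the VC range, and was called lower with upper-quartile scaling, by DESeq2 and with the length trend removed, but was at 0.45 and called higher when scaled by total reads.

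Of 11 genes reported elsewhere as Klf targets, 1 was called higher and the median log2 fold change was 0.33. Thbd, an anticoagulant receptor of endothelium that Klf2 is known to induce, had 70.9, 114, 221 and 154 normalized counts in the VC and 392, 769, 431 and 416 in the AP libraries. AP.2, the library with the highest endothelial sum, was also the highest for Thbd, and the groups did not overlap. Its log2 fold change was 1.90 (SE 0.33, limma adjusted p = 0.0104), and it was called whichever of the 8 libraries was left out. Lgals3, the most abundant of the list, was at 0.35 (limma adjusted p = 0.278). Ccl5, named above with Klf13, was at -1.41 (limma adjusted p = 0.158), the 1 gene of the list lower at an unadjusted p under 0.05; DESeq2 called 3 of the list higher and 1 lower. Of 7 glucocorticoid-responsive genes, listed because Klf9 and Klf15 are induced by the hormone, 0 were called by limma or edgeR and at an unadjusted p under 0.05 0 were higher and 1 was lower; the median was 0.17, and Mt2, the most abundant, was at -0.74 (limma adjusted p = 0.114; 0.13 when scaled by total reads) and was called lower by DESeq2 and without VC.4.

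The members' promoters were compared as a feature that their selection did not use. RefSeq (GRCm38.p6) gave a start for 8 of the 10 members, with no entry for Klf5 and Klf10, and the 250 bases before each start were searched on both strands. A GC box (GGGCGG), the sequence bound by Sp and Kruppel-like factors, was found in 7 of the 8 (all but Klf9), beside 32.7% of 32851 promoters of all genes. A CACCC box (CACCC) was found in 5 of 8 (Klf2, Klf3, Klf7, Klf9 and Klf13), beside 52.0%, and a CCAAT box (CCAAT) in 4 of 8 (Klf6, Klf9, Klf11 and Klf13), beside 33.8%. An AP-1 site (TGANTCA) was found in Klf9 alone, beside 6.75%, and no member held a CRE (TGACGTCA, 1.55%), a CArG box (1.47%) or a TATA box (TATAAA, 12.4%) in this window. The windows of the 8 members were 59.2% to 78.4% G and C, beside a median of 52.4% over all promoters, and the part of base composition in these matches was not tested. A match is a description of letters and not of binding.

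Shown are the windows of Klf4 and Klf6, the immediate early members called in every fit, of Klf2, and of Klf9 and Klf13 as other members, each 5′ to 3′ in the direction of the gene. Capitals mark the motifs named above on either strand, which overlap in places. The last 29 bases for Klf2 and 7 bases for Klf6 lie inside the gene as GENCODE M21 draws it, as do 133 for Klf3, 97 for Klf11 and all 250 for Klf7, whose windows are not shown.
Klf4 (chr4:55532476-55532725, minus strand): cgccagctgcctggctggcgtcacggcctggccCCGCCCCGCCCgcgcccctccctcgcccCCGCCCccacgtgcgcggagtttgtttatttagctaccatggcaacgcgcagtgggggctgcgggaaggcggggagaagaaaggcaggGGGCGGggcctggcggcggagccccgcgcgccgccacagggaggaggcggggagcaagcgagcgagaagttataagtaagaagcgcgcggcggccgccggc
Klf6 (chr13:5861239-5861488, plus strand): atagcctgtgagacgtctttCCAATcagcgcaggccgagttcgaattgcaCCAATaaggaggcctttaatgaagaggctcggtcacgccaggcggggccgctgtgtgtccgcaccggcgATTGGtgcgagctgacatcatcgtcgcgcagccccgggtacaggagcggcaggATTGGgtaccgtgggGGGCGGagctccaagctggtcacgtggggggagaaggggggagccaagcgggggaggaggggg
Klf2 (chr8:72318812-72319061, plus strand): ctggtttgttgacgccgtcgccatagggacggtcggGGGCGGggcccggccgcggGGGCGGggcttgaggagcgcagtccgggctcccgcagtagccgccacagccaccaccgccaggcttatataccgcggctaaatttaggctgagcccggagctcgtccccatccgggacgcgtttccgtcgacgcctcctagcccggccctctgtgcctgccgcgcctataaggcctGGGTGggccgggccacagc
Klf9 (chr19:23140976-23141225, plus strand): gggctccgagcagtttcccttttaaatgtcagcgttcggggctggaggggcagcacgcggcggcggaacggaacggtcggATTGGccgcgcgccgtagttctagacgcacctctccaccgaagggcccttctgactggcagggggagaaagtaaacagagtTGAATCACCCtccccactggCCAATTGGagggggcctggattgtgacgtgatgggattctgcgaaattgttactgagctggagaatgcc
Klf13 (chr7:63938916-63939165, minus strand): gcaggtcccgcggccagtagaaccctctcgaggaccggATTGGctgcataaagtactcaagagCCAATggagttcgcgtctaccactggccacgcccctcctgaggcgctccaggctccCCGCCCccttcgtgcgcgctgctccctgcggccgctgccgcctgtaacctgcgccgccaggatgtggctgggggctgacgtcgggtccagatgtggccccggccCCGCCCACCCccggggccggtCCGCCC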

How the data were processed

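The deposited table gives, for 18770 genes and 8 libraries, a signal that the authors obtained as reads per gene divided by 1 DESeq2 size factor per library. Per the study's methods the reads were aligned to mm10 with STAR and counted with featureCounts, whereas the submitters' processing notes name HTSeq; versions and strandedness are not given in the sources used here. All 150160 values were whole multiples of 1 step per library (tolerance 0.05 reads), so reads were recovered. Columns of the authors' own comparison (mean, log2 fold change, its error, test statistic, p-value and adjusted p-value) entered no result; their mean was only checked against that of the 8 libraries (largest difference 1.88e-04).

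Normalized counts were tested as log2(value + 1) with limma 3.58.1 and an intensity trend in R 4.3.3, after tests on simulated data. Members and gene lists were chosen with earlier results of these data known. All tested Klf and Sp genes were named, and of every other list up to 4 called genes by fold change and the most abundant gene. Further genes were named where they went the other way or outranked the most abundant gene within 1 group. Coordinates and exon lengths are from GENCODE M21 (GRCm38), which holds 18766 of the identifiers. Alternatives were TMM, upper-quartile and total-count scaling, size factors without mitochondrial genes, pseudocounts of 0.5 and 5, no filter or a minimum of 10, no intensity trend, voom, edgeR 4.0.16 and DESeq2 1.42.0 on recovered reads, removal of a loess trend (span 0.3) on transcript length, and each library left out. Replicate libraries differed by a chi-square of 14.7 to 74.2 per degree of freedom, so none was a duplicate. Protein sequences were not used here.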

Additional observations from a re-analysis of the deposited data

Results flagged for a closer look

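Within groups of 4 libraries, 3 of the 44 combinations of a tested Klf or Sp gene with a group had 1 library far from the other libraries by Dixon's criterion at the 95% level, where chance alone gives about 1 in 20. Klf10 in VC.1 was 202 normalized counts, against 294 to 306 in the other VC libraries. Klf8 in VC.2 was 7.39, against 5.46 to 5.63, or 5 reads against 3 or 4. Sp7 in AP.3 was 19.4, against 3.58 to 4.31 in the other AP libraries.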

How the results depend on the processing

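The members were chosen with this contrast known, so nothing is read from their signs and calls given next. Over 21 alternatives no member turned below 0. Klf4 and Klf6 were called in 21, Klf7 in 19, Klf3 in 18, Klf13 in 13, Klf5 in 4, Klf9 in 2, and Klf2, Klf10 and Klf11 in 1, by total-count scaling. The 5 members called higher became 10 with total-count scaling and 3 without the intensity trend, and 2 to 6 when 1 library was left out; 0 were lower throughout. The median of the 10 members, 0.84, became 1.71 with total-count scaling and 0.73 to 0.92 with 1 library left out. The immediate early median, also 0.84, became 1.71 with total-count scaling and 0.72 to 0.95 with 1 library left out. The median of the other members, 0.86, became 1.72 with total-count scaling, 0.66 with the length trend removed and 0.77 to 0.94 with 1 library left out. Among all genes, 1011 higher and 639 lower became 8657 and 70 with total-count scaling, 376 and 216 without the intensity trend, 1677 and 1362 with DESeq2, and 580 and 516 with the length trend removed. Leaving out 1 library gave 209 to 1082 higher and 94 to 817 lower. The calls were 61.3% higher; upper-quartile scaling gave 919 higher and 842 lower (52.2%), voom 715 higher and 722 lower (49.8%), and total-count scaling 99.2%.

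Of genes outside the members, Klf15 changed sign to 0.86 with total-count scaling, 0.15 with edgeR, 0.16 with DESeq2, 0.079 with the length trend removed, and lay between -0.29 and 0.35 with 1 library left out. Total-count scaling also turned Sp5 (0.54), Sp7 (0.031), Jund (0.78), Ctbp1 (0.45) and Mt2 (0.13). It turned the median of leukocyte markers to 0.35 (3 called higher) and of cofactors to 0.72 (8 called higher). The median of the genes listed as hair matrix and shaft markers turned to 0.56 (3 called higher). The skeletal muscle median stayed below 0, at -0.87. Jund turned to 0.062 with the length trend removed and lay between -0.27 and 0.052 with 1 library left out, and Nr3c1 turned to -0.013 with the length trend removed. Without the intensity trend Sp1, Mef2a, Ep300, Sin3a, Cdh5, Pecam1, Col17a1, Itgb4, Cd207 and Hbb-bs were not called, and Klf8 was. Col1a1 (0.63) became 0.38 without AP.1, Cfd (0.43) became 0.13 without VC.3, and Lgals3 (0.35) became 0.20 without AP.4. The cause of these differences was not tested. No paired analysis was possible because the groups are separate mice and no source pairs them. Depth limits genes with few reads, such as Klf8 and Sp4, and 3 reads are up to 5.63 normalized counts in VC.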
